A study of Mus musculus with 8 samples.

Results

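Malat1 and Neat1 are long noncoding RNAs that stay in the cell nucleus, and they were followed here in mouse germinal vesicle (GV) oocytes, immature oocytes that still hold an intact nucleus. Their members are the probe sets that the array annotation gives to exactly 1 of these 2 genes. There were 9 such probe sets, 7 of Malat1 and 2 of Neat1, among 45037 that are not array controls, so the members are 2 of 18193 genes with a symbol of their own there. Milrinone blocks the cAMP phosphodiesterase of the oocyte. Total RNA of 4 samples of GV oocytes kept in culture with it for 48 h was compared with that of 4 samples of untreated GV oocytes on single-colour Affymetrix arrays loaded with 15 µg of cRNA each. No strain, age or collection is given in the labels, and none names oocytes cultured without the drug, so drug, culture and elapsed time cannot be told apart. The pair was chosen by the difference between milrinone and untreated intensities of Malat1 that earlier results of these data had shown. The contrast between the groups is therefore given for its probe sets as a description with no test.

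Malat1 accumulates in nuclear speckles, bodies rich in splicing factors, and is among the most abundant noncoding RNAs of many somatic cells. Its mature transcript has no ordinary poly(A) tail. RNase P cuts the primary transcript, releasing a small tRNA-like RNA called mascRNA from the downstream side, and a triple helix protects the new end. Neat1 is the scaffold of the paraspeckle, a nuclear body that forms around its long isoform with the proteins Nono, Sfpq and Pspc1. In the RefSeq annotation of GRCm38.p6 both genes lie on chromosome 19 as neighbours, and the only other annotated gene from the start of Malat1 to the end of Neat1 is Mascrna itself.

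The promoter of Malat1 is shown because milrinone acts through cAMP and a cAMP response element can be searched for in its letters. RefSeq (GRCm38.p6) gives it on the minus strand at chr19:5802623-5802922, from 250 bases before the transcript start to 50 bases after, and 1 of the 2 genes had an entry. Capitals mark each TGACG, the short core of a cAMP response element, on either strand, so that a match on the opposite strand reads CGTCA.
Malat1: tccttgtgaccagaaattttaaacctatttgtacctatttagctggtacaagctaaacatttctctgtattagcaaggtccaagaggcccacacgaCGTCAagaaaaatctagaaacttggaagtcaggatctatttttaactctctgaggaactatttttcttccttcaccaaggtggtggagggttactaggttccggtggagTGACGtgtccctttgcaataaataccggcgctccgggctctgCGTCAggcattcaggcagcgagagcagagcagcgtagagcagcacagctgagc
The full element TGACGTCA had 0 matches on either strand, against a match in 1.79% of 32851 promoters of this length. The core TGACG had 3 matches, with their first printed base at -154, -45 and -3 from the start. At least 1 match of the core stood in 20.8% of all promoters and at least 3 in 1.03%, and a match is a description of the letters only.

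The samples carried oocyte RNA throughout. All 13 probe sets of 10 oocyte markers, among them Gdf9 and Zp3, had a value on each of the 8 arrays, with a summed intensity of 110542 to 118853 in milrinone and 108275 to 127592 in untreated samples. Below, listed means that a probe set had a value on the array in question, and an empty cell is left empty because it sets no upper limit on the signal. The milrinone arrays listed 18605 to 19448 probe sets and the untreated arrays 18888 to 23269. Untreated 1 stood apart, with the most listed probe sets and a median correlation with the other arrays of 0.933, against 0.969 to 0.981 for the other 7. Of 47 probe sets of granulosa, cumulus and theca cell markers, 11 to 19 were listed in milrinone, with a summed intensity of 2861 to 4005, and 25 to 36 in untreated samples, with 22476 to 99100. All probe sets of Star, Amhr2, Cyp17a1, Nr5a1 and Fst were empty on the milrinone arrays. Other members of the list went otherwise. Ptgs2 1417263_at was listed on 2 milrinone arrays and 1 untreated array, and Has2 1418678_at on 2 of each. Blood, stromal and endothelial markers had 4 to 6 of 26 probe sets listed in milrinone, with a summed intensity of 624 to 823, against 14 to 19 in untreated samples, with 1794 to 21398. Only 4 of these 15 genes could be tested, Kdr, Tek, Cd68 and Adgre1. They differed by -0.34 to 0.12 log2 units, milrinone minus untreated, and 0 had a limma adjusted p under 0.05, against 0.117% of all tested probe sets. The part of these other cells in the Malat1 values was not tested, and in such bulk samples fewer cells of a type and less RNA per cell cannot be told apart.

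Malat1 was lower in milrinone in every probe set that had values in both groups. The probe set 1418188_a_at, whose suffix marks probes shared by transcripts of the same gene, was the only member listed on all 8 arrays. It had intensities of 167, 38.3, 67.4 and 35.6 on milrinone 1 to 4, against 2140.1, 570.3, 1139 and 974 on untreated 1 to 4. The groups did not overlap, and the lowest untreated array stood 3.42 times above the highest milrinone array. The means were 77.0 ± 61.5 in milrinone and 1206 ± 667 in untreated samples (SD, n = 4 each). On the scale of log2(intensity + 16), used for every log2 value here, the difference of milrinone minus untreated was -3.76 (SE 0.45). The drop in the group mean on this scale corresponds to a 13.6-fold higher level in untreated samples.

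The probe set 1418189_s_at, whose suffix marks probes that transcripts of several genes may share, gave a similar picture. It had 143, 49.8 and 88.8 on milrinone 1 to 3 and was empty on milrinone 4, against 3550.3, 772, 1279 and 1691 on untreated 1 to 4. Milrinone 1 was the highest of its group and untreated 1 the highest of the other, as with the first probe set, and the groups did not overlap. The difference was -3.94 (SE 0.47), fitted without the empty array, with means of 93.7 ± 46.6 in milrinone (SD, n = 3) and 1823 ± 1211 in untreated samples (SD, n = 4). Another shared probe set, 1438403_s_at, had 202 and 195 on milrinone 1 and 3 and was empty on the other 2, against 2311, 663, 754 and 902 on untreated 1 to 4. Its lowest untreated value was 3.29 times its highest milrinone value, and it was listed on too few milrinone arrays to enter the fit.

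Of the remaining 4 Malat1 probe sets, 3 were listed only on untreated arrays and 1, 1427285_s_at, was empty on all 8. The probe set 1436202_at was empty on the 4 milrinone arrays and had 404, 109, 65.8 and 96.9 on untreated 1 to 4. Likewise 1452378_at was empty on the 4 milrinone arrays and had 385, 136, 99.7 and 147 on untreated 1 to 4. The probe set 1429060_at was empty on the 4 milrinone arrays and on untreated 4, and had 395, 144 and 76.1 on untreated 1 to 3. These 3 dim probe sets were again highest on untreated 1, and no fold is given for them because the milrinone side has no value. Of all 45037 probe sets, 703 (1.56%) were listed on at least 3 untreated and on no milrinone array, and 86 (0.191%) showed the opposite.

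**Figure D1:**
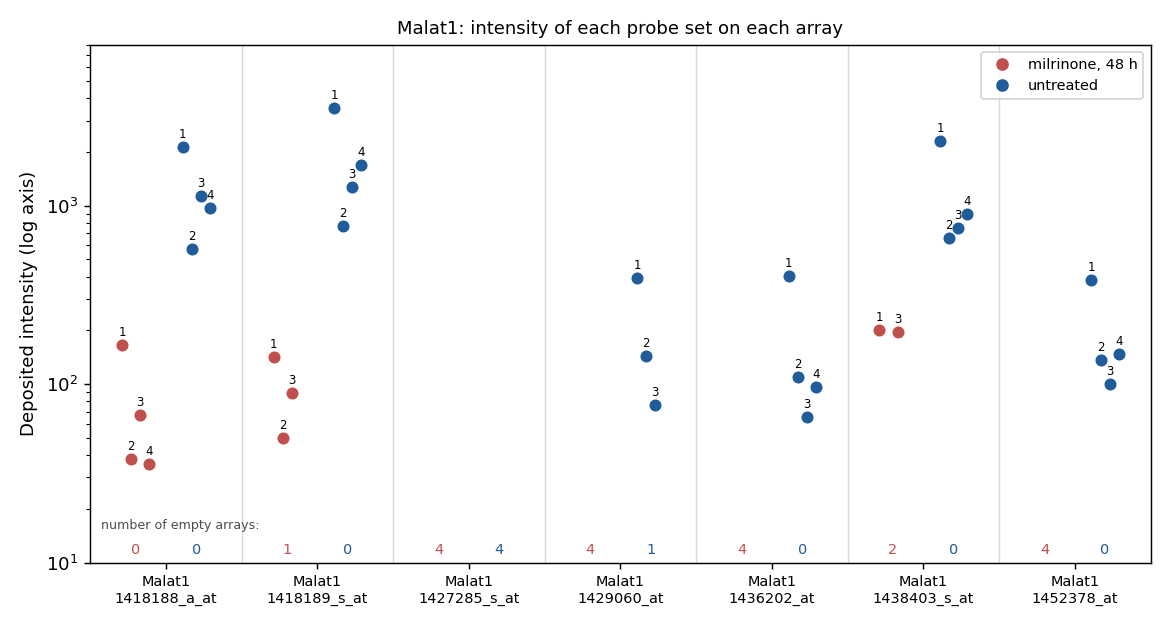
Intensity of the 7 Malat1 probe sets (log axis) on each array, with milrinone samples left and untreated samples right in each column, replicate numbers beside the points and the number of empty arrays along the bottom. In the 3 probe sets listed in both groups every milrinone point lies below every untreated point, and in 3 others the milrinone side is empty.

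Of the 9 probe sets 2 were listed on at least 3 arrays of each group and entered the limma fit, both of Malat1. Both were among the 19 of 16288 probe sets that passed at an adjusted p under 0.05, all lower in milrinone (0.117%), and both were among the 446 (2.74%) whose milrinone arrays all lay below the untreated arrays. Because the contrast chose the gene, nothing is read from these counts. Without milrinone 3 neither Malat1 probe set passed, and without milrinone 2 1418189_s_at did not, although the differences without milrinone 3 were -3.78 for 1418188_a_at and -3.95 for 1418189_s_at. Without untreated 1 the differences were -3.44 and -3.55.

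Neat1 was listed on 2 to 4 of the 8 arrays, and its 2 probe sets gave no shared direction. The probe set 1428083_at was empty on all 4 milrinone arrays and on untreated 3 and 4, and had 456 on untreated 1 and 228 on untreated 2. The probe set 1442881_at had 122 on milrinone 2 and 109.7 on milrinone 4, against 80.4 on untreated 2 and 102 on untreated 3, and was empty on the other 4 arrays. Its 2 milrinone values lay above its 2 untreated values, by a difference of 0.31 when probe sets listed on 2 arrays of each group were let into the fit. Neither met the filter of 3 listed arrays in each group, and no test of Neat1 is given. The annotation does not say which isoform each probe set reads.

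**Figure D2:**
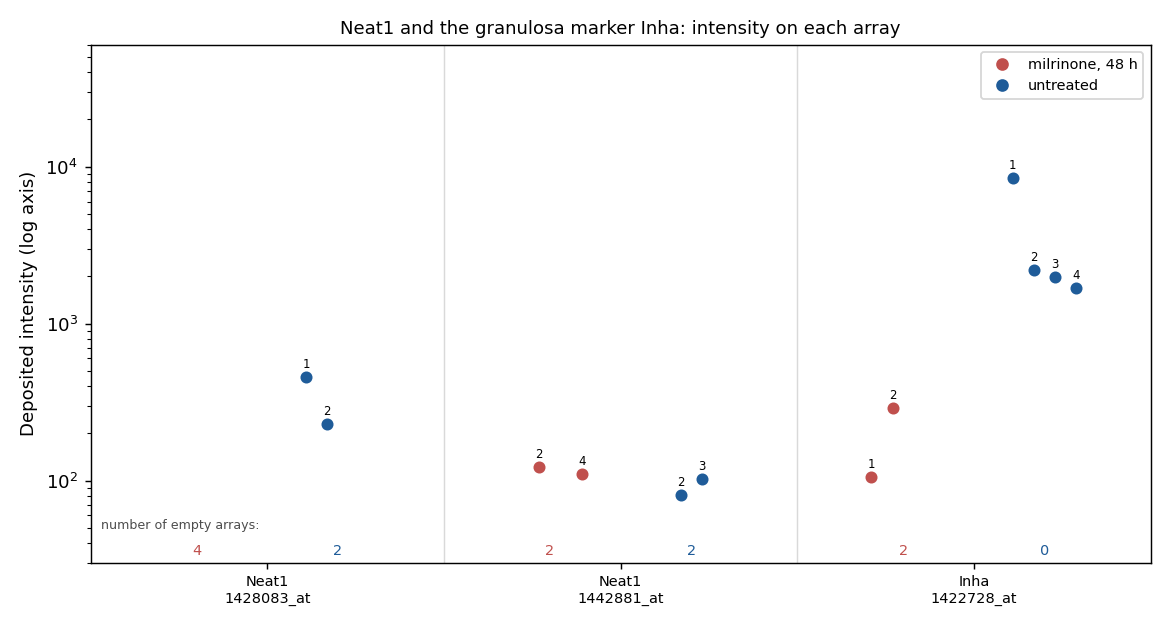
Intensity of the 2 Neat1 probe sets and of the granulosa marker Inha (log axis) on each array, with milrinone samples left and untreated samples right, replicate numbers beside the points and the number of empty arrays along the bottom. Neat1 1428083_at is listed on 2 untreated arrays only, Neat1 1442881_at on 2 arrays of each group, and Inha on 2 milrinone and 4 untreated arrays.

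Inha encodes the inhibin alpha subunit, a product of granulosa cells, and served as the marker of those cells on each array. It had 106 on milrinone 1 and 289 on milrinone 2 and was empty on milrinone 3 and 4, against 8512, 2182, 1992 and 1698 on untreated 1 to 4. Like the 3 Malat1 probe sets with values in both groups, it was highest on untreated 1 and its groups did not overlap. Untreated 1 stood 4.27 times above the median of untreated 2 to 4 for Inha. The same ratio ran from 2.20 for 1418188_a_at to 4.17 for 1436202_at over the 6 listed Malat1 probe sets.

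Among the other arrays the order of the 3 brighter Malat1 probe sets was not that of Inha, while that of the dim ones was partly so. Relative to its own lowest listed array, 1418188_a_at stood 1.82, 0.07, 0.69 and 0.00 log2 units higher on milrinone 1 to 4, whereas Inha stood at 0.00 on milrinone 1 and 1.32 on milrinone 2. Thus Malat1 was higher on milrinone 1 than on milrinone 2 and Inha was lower. On untreated 1 to 4 the probe set 1418188_a_at stood 5.38, 3.51, 4.48 and 4.26 log2 units above its lowest array, and Inha stood 6.13, 4.17, 4.04 and 3.81 above its own. Untreated 2 was the lowest of the untreated arrays for each of the 3 brighter Malat1 probe sets, and the second highest for Inha. Markers of the granulosa, cumulus and theca list differed among themselves here. Inhba had 6953, 937, 1253 and 2413 on untreated 1 to 4 and Cyp17a1 had 2409, 389, 437 and 478, both lowest on untreated 2. From high to low both ran over untreated 1, 4, 3 and 2, the order of 1418189_s_at and 1438403_s_at. Star 1418728_at had 2376, 164, 262 and 175 on untreated 1 to 4, in the order of 1418188_a_at. Hsd3b1 (15429, 3688, 4335 and 2116) and Inhbb 1426858_at (4232, 1014, 1059 and 928) were lowest on untreated 4, as was Inha. The 3 dim Malat1 probe sets had untreated 3 as their lowest listed array. In 1429060_at and 1436202_at untreated 2 was the second highest, as for Inha, and over the 3 listed arrays of 1429060_at the order was that of Inha. The 2 milrinone and 4 untreated values of Inha are too few and too clearly split by group for a correlation.

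**Figure D3:**
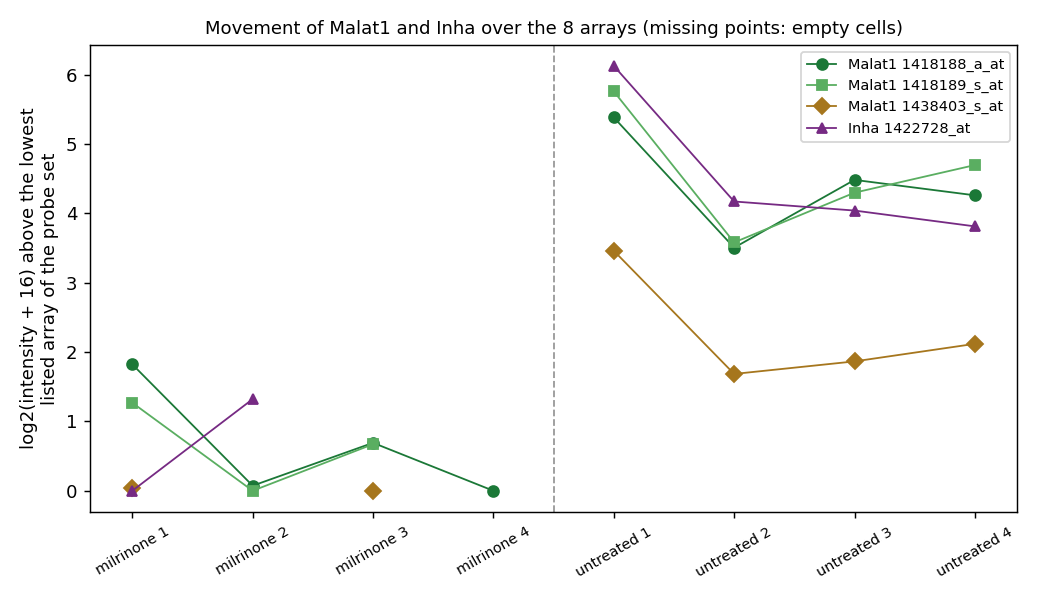
Log2(intensity + 16) of 3 Malat1 probe sets and of Inha above the lowest listed array of each probe set, for the milrinone arrays on the left and the untreated arrays on the right, with empty cells left out. All 4 are highest on untreated 1, while Malat1 1418188_a_at is higher on milrinone 1 than on milrinone 2 and Inha is lower there.

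Other granulosa and cumulus genes were compared with Malat1 by their differences in the same fit, with the brightest tested probe set standing for each gene, and Gja1 and Grem1 differed by more. Gja1, the connexin of granulosa cells, had a difference of -4.91 (SE 0.60) and Grem1, a BMP antagonist of cumulus cells, one of -4.67 (SE 0.47). These 2 of the 7 tested genes of the list passed (limma, adjusted p = 0.0109 and 0.00482), against 0.117% of all tested probe sets. In 4 of the 7 every milrinone array lay below the untreated arrays, against 2.74% of all tested probe sets. Hsd17b1, an enzyme of oestrogen synthesis, differed by -2.48 and Foxl2, a transcription factor of granulosa cells, by -1.86 without passing. The remaining 3 genes differed by less and did not pass, with -0.62 for Nr5a2, a nuclear receptor, -0.08 for Kitl, the ligand of the oocyte receptor Kit, and 0.29 for Cyp11a1, the enzyme that starts steroid synthesis from cholesterol. A second Cyp11a1 probe set, 1448804_at, was outside the fit, empty on the 4 milrinone arrays and at 576 to 9664 on the untreated arrays. A dimmer Nr5a2 probe set, 1456521_at, had 294 to 438 in milrinone and 653 to 4003 in untreated samples, without overlap. The groups overlapped in the brightest Nr5a2 probe set and in 1449706_s_at. The Malat1 values of -3.76 and -3.94 lay between those of Grem1 and Hsd17b1, and no test sets Malat1 against them. Of the 24 genes of the list 22 had a probe set with 1 symbol and only 7 were tested, so this place is among tested genes alone. The genes outside the fit include Inha, Inhba, Hsd3b1 and Star, listed on more untreated arrays, and Ptgs2, listed on more milrinone arrays. The other tested Gja1 probe sets differed by -4.12 (1438945_x_at) and -3.86 (1438650_x_at), the last of these between the Malat1 values.

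The genes whose pattern over the arrays was most like that of Malat1 were found by the smallest root mean square difference between centred log2 profiles. Only probe sets with 1 symbol and a value on every array compared could be named. This left out Inha and other granulosa genes with empty milrinone cells, such as Star, Amhr2, Fst and Hsd3b1. Among Malat1 probe sets with at least 6 listed arrays, 1438403_s_at had the highest mean log2 value. That mean skips empty cells, and this probe set has values on only 2 milrinone arrays. On each untreated array 1418189_s_at was brighter. Over its 6 listed arrays the profile of 1438403_s_at was nearest to Pclaf, which encodes a PCNA-binding protein, at 0.163 log2 units among 13596 probe sets. The next were Bpnt2, a nucleotide phosphatase of the Golgi, at 0.285, Pabpc1, the cytoplasmic poly(A)-binding protein, at 0.365, Sdc4, a heparan sulfate proteoglycan of the cell surface, at 0.382, and the noncoding RNA Xist at 0.384. The other Malat1 probe sets with values on all 6 arrays stood farther from it than these 5 genes. Inha stood at 0.978 over the 5 arrays that both list. Pclaf had 35.4, 30.8 and 45.6 on milrinone 1, 3 and 4 and was empty on milrinone 2, against 589, 149.9, 126 and 174 on untreated 1 to 4. For 1418188_a_at, taken as well after its values were seen because it is listed on all 8 arrays, the nearest were Gja1 at 0.742, the lysosomal protease gene Ctsl at 0.768, the lysosomal ganglioside activator gene Gm2a at 0.888, Tmem86a at 0.896 and Akr1cl at 0.927, against 1.02 for Inha over 6 arrays. These values share the arrays, and untreated 1 weighs on all of them.

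Among 38 other long noncoding RNAs, 29 had a probe set with 1 symbol in the annotation and 13 were tested. None passed the limma test, and 4 had an unadjusted p under 0.05, all lower in milrinone. Over all tested probe sets 9.63% had such a p, 4% lower and 5.62% higher in milrinone. These 4 were also the ones whose groups did not overlap, as for 2.74% of all tested probe sets. The median difference of the 13 was -0.03, against 0.06 over all 16288 tested probe sets, and 7 of the 13 lay below 0 with the deposited scaling, against 38.0% of all. Their 84 probe sets were listed 27 to 31 times on a milrinone array and 32 to 44 times on an untreated array.

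Norad, a cytoplasmic RNA that binds Pumilio proteins, came nearest to Malat1 in size. Its probe set 1428286_at had 86.4, 109, 77.1 and 152 on milrinone 1 to 4, against 1767, 536, 594 and 289 on untreated 1 to 4, a difference of -2.46 (SE 0.45, limma adjusted p = 0.105). The groups did not overlap, but the call depended on the arrays used. It passed without untreated 1 (-1.98, adjusted p = 0.0189), without untreated 4 (-2.83, adjusted p = 0.0355) and with array weights (-2.40, adjusted p = 0.00205), and over the 17 alternatives the adjusted p ran to 0.393. A dimmer probe set, 1432646_a_at, had 64.6, 66.2, 55.2 and 33.5 in milrinone against 38.4, 53.7, 63.7 and 86.5 in untreated samples. Its groups overlapped, unlike those of the brighter probe set. The third, 1454312_at, had 103 on milrinone 2 and 87.1 on milrinone 4 and was empty on the untreated arrays.

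Xist, the RNA that coats the inactive X chromosome in female somatic cells, had 73.1, 48.5 and 61.8 on milrinone 1, 3 and 4 and was empty on milrinone 2, against 731, 298, 165 and 187 on untreated 1 to 4. The difference of this probe set, 1436936_s_at, was -1.99 (SE 0.43, limma adjusted p = 0.249). It passed without untreated 1 (-1.56, adjusted p = 0.0376) and with array weights (-1.74, adjusted p = 0.0241), and the adjusted p ran to 0.780 over the alternatives. A second probe set of Xist, 1427262_at, was empty on the milrinone arrays and on untreated 3, and had 658, 277 and 141 on untreated 1, 2 and 4.

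Snhg8, a host transcript of a small nucleolar RNA, had 85.4, 80.4, 61.7 and 46.4 on milrinone 1 to 4, against 424, 129.9, 109 and 104 on untreated 1 to 4. Its difference was -1.09 (limma adjusted p = 0.472), or -0.64 without untreated 1. Meg3, an imprinted noncoding RNA, had 378, 356, 324 and 329 on milrinone 1 to 4, against 731, 525, 424 and 384 on untreated 1 to 4, a difference of -0.51 (limma adjusted p = 0.494). The probe sets 1435524_at of Snhg8 and 1452183_a_at of Meg3, which gave these values, were highest on untreated 1. The other 3 tested Meg3 probe sets had overlapping groups, with differences of -0.36 (1439380_x_at), -0.21 (1426758_s_at) and 0.11 (1436057_at). Tug1, another largely nuclear RNA, was bright and level, with 1529.6, 1653, 1708 and 1784 on milrinone 1 to 4 and 1604, 1992, 1621 and 1375 on untreated 1 to 4. Its difference was 0.03 (SE 0.13), although a dimmer probe set differed by -0.58 with overlapping groups.

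**Figure D4:**
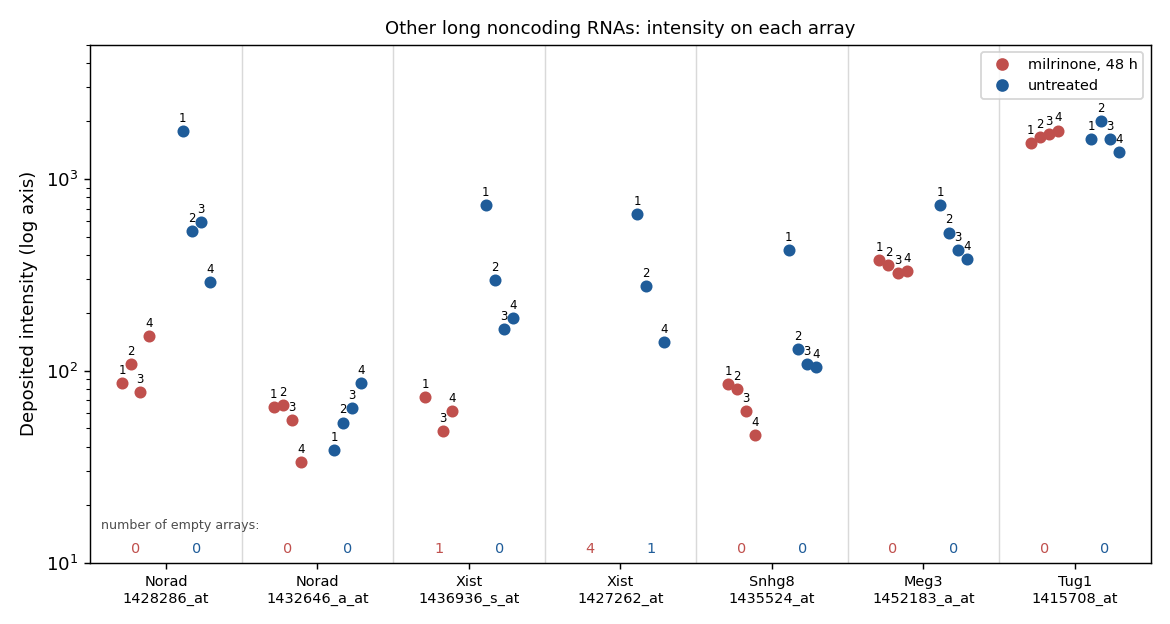
Intensity (log axis) of 7 probe sets of the noncoding RNAs Norad, Xist, Snhg8, Meg3 and Tug1 on each array, with milrinone samples left and untreated samples right, replicate numbers beside the points and the number of empty arrays along the bottom. Norad 1428286_at and Xist 1436936_s_at lie lower on every listed milrinone array than on any untreated array, while the second Norad probe set and Tug1 overlap.

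The transcripts for proteins of the nuclear bodies in which the pair resides were mostly tested, and none passed in the brightest tested probe set of its gene. Of 27 paraspeckle protein genes 22 were tested, 0 passed the limma test and 1 had an unadjusted p under 0.05, against 9.63% of all tested probe sets, with a median difference of -0.01. That gene was Pspc1, a core paraspeckle protein, with 107, 110.2, 109 and 108 on milrinone 1 to 4, against 278, 156, 184 and 122 on untreated 1 to 4 (difference -0.64, limma adjusted p = 0.460). Its milrinone arrays all lay below the untreated ones, as for 1 of the 22 genes and for 2.74% of all tested probe sets. Nudt21, a subunit of the cleavage factor that chooses poly(A) sites, differed by -0.52, the splicing regulator Hnrnph1 by -0.43 and the RNA-binding protein gene Taf15 by 0.54, none passing. The list's 74 probe sets were listed 47 to 53 times on a milrinone array and 57 to 64 times on an untreated array. Ewsr1 1417238_at (222 to 402), Cpsf6 1428231_at (79.7 to 868) and Sfpq 1436898_at (34.8 to 167) were listed on the 4 untreated arrays only. So was Sfpq 1423796_at, at 12.1 to 36.8. Over all probe sets 1.56% were listed on at least 3 untreated and no milrinone arrays. Ewsr1 1456461_at, at 10.2, was listed on milrinone 3 only.

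Of 42 nuclear speckle protein genes 41 were tested, 0 passed the limma test, 2 were lower and 1 higher at an unadjusted p under 0.05, against 4% and 5.62% of all tested probe sets, and the median difference was 0.02. The splicing factor gene Srsf5 had 915, 985, 695 and 873 on milrinone 1 to 4, against 1537, 1123, 992 and 1359 on untreated 1 to 4 (difference -0.51, limma adjusted p = 0.460). Cdk12, a kinase of RNA polymerase II, had 1948, 1922, 1876 and 1983 on milrinone 1 to 4, against 1487, 1521, 1694 and 1247 on untreated 1 to 4 (difference 0.38, limma adjusted p = 0.460), and the dimmer tested probe sets of Cdk12 differed by -0.15 to 0.05. Thoc2, of the mRNA export complex THO, differed by -0.37, with -0.27 and 0.09 in its dimmer probe sets, and Rnps1, of the exon junction complex, by 0.18. The list's 157 probe sets were listed 111 to 113 times on a milrinone array and 117 to 128 times on an untreated array. Srsf6 1448454_at had 179 to 293 in milrinone and 296 to 884 in untreated samples, and Pabpn1 1422850_at 71.3 to 97.1 and 110 to 285. In the other direction Son 1437924_at had 1117 to 1363 and 851 to 1085. The groups overlapped in the brightest tested probe sets of these genes.

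Genes that process or modify Malat1 were likewise without a call. Of 19 in the list 15 were tested, 0 passed the limma test and 1 had an unadjusted p under 0.05, against 9.63% of all tested probe sets, with a median of 0.09 and a range of -0.13 to 0.38. That gene was Mettl3, the catalytic subunit of the m6A methyltransferase, at 0.26 (SE 0.11, limma adjusted p = 0.509). Rpp21, a subunit of RNase P, differed by 0.38, Elac2, the RNase Z that trims mascRNA, by 0.26 and Ythdc1, a nuclear reader of m6A, by 0.30. The dimmer probe sets of Elac2 differed by 0.05 and -0.08. All 4 genes lay above 0 in these probe sets with the deposited scaling, in which the whole tested table had a median of 0.06.

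**Figure D5:**
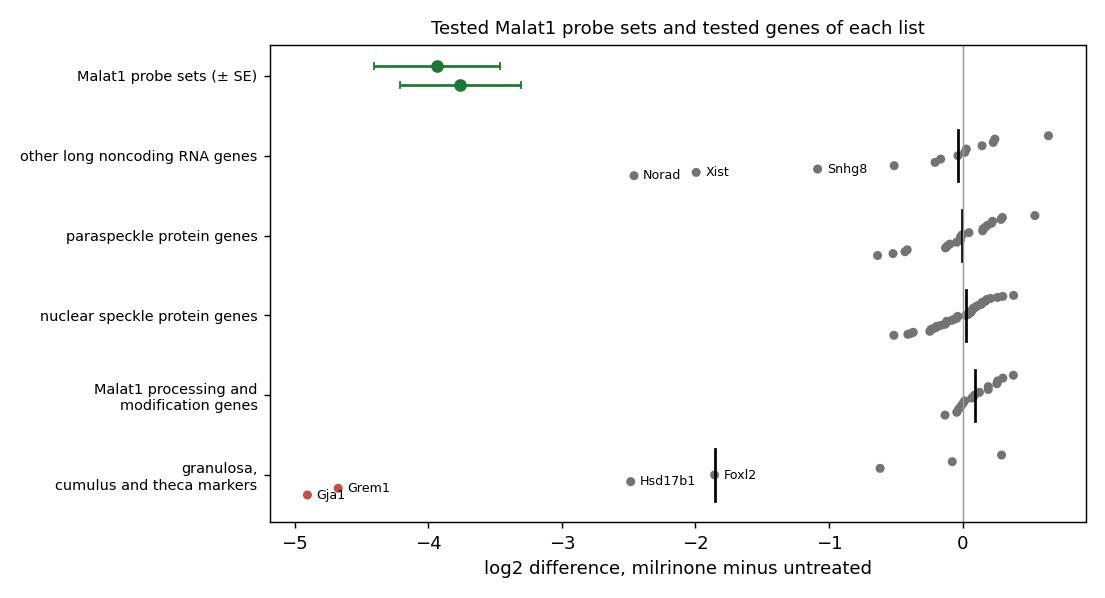
Log2 difference of milrinone minus untreated for the 2 tested Malat1 probe sets (bars, SE) and for each tested gene of 5 lists (points, with red for adjusted p under 0.05 and a black bar at the list median). The Malat1 probe sets at -3.76 and -3.94 lie below all 13 tested noncoding RNAs and all paraspeckle, speckle and processing genes, and above the plotted probe sets of Gja1 and Grem1. Malat1 was chosen by this contrast, so nothing is read from its place.

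The neighbourhood of the genes was compared as well, through the 5 nearest protein-coding genes on each side in RefSeq order, a choice made with the Malat1 values known. Of these 10 genes 5 were tested and 0 passed the limma test. Over all tested probe sets 0.117% passed and 9.63% had an unadjusted p under 0.05, so nothing is read from counts among 5 genes. On the Malat1 side Ltbp3, which encodes a binding protein of latent TGF-beta, differed by -0.64 (SE 0.40, limma adjusted p = 0.575) and Znrd2 by 0.17. On the Neat1 side Frmd8 differed by 0.12, Dpf2, a subunit of a chromatin remodelling complex, by -0.23, and Cdc42ep2, an effector of the GTPase Cdc42, by 0.50, the only one with an unadjusted p under 0.05 (0.0227, limma adjusted p = 0.483). None of the 5 had a difference of the size of that of Malat1, which was chosen by its difference, so nothing is read from this.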

How the data were processed

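The authors deposited an intensity for each probe set on a linear scale, with many cells empty. How the scans were processed and scaled, and why cells are empty, is not stated in the labels used here. The platform annotation gave gene names, which Entrez identifiers linked to current RefSeq symbols (GRCm38.p6), and members were matched on the annotation's own symbol. Of 45037 probe sets, 34945 had 1 symbol, 932 several and 9160 none. Intensities were analysed as log2(intensity + 16) with the deposited scaling. The fit took the 16288 probe sets, of 9454 genes, that had 3 or more listed arrays in each group. It used limma 3.58.1 (R 4.3.3) with lmFit and a trended eBayes, two-sided, Benjamini-Hochberg over all and a threshold of 0.05. The fit was tested on simulated data. The number of arrays limits the precision (median SE 0.17). Each list gene stands for its tested probe set of highest mean. The text names every probe set of Malat1, Neat1 and Inha, the 4 list members with the smallest adjusted p or all that passed, and the 5 nearest profiles. Further probe sets of list genes, the granulosa genes without a call and the neighbours were chosen after values were seen. Members and lists were chosen with earlier results of these data known. Nothing in the labels says that replicates came from separate collections, and p-values cover only the spread between the arrays at hand, possibly technical. Alternatives changed the pseudocount, normalization, filter, trend, array weights, block and arrays left out. Plots were drawn with matplotlib 3.10.9 under Python 3.11.15.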

Additional observations from a re-analysis of the deposited data

Results flagged for a closer look

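In 3 of 38 groups of 4 arrays 1 array lay far from the other 3, where chance gives about 1 in 20, or 1.9. Divided by the whole range of the 4, its distance to the next array was 0.845 for Inha and 0.849 for Snhg8, both highest on untreated 1, and 0.830 for Rpp21, lowest on untreated 1. No Malat1 probe set was among them. Without untreated 1 the difference of Malat1 1418188_a_at was -3.44.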

How the results depend on the processing

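The difference of Malat1 stayed negative and within the spread between arrays under every alternative that gave it a value, from -4.15 to -3.12 for 1418188_a_at and from -4.27 to -3.41 for 1418189_s_at. The number of its probe sets that passed was 1 among probe sets listed on all 8 arrays, where only 1418188_a_at was tested, and 0 to 2 when 1 array was left out. Because the contrast chose the gene, nothing is read from this number or from the Malat1 calls given below. Letting in probe sets listed on 2 arrays of each group gave 1438403_s_at a difference of -2.26. The 19 changed probe sets, all lower in milrinone, became 12, all lower, among those listed on all 8 arrays, 93 with array weights, 87 of them lower, and 9 to 69 when 1 array was left out, with 9 to 68 lower. Those counts were 69 without untreated 1 and 9 without milrinone 3, and the cause was not tested. Among the other noncoding RNAs 2 passed with array weights, and 0 to 2 when 1 array was left out, these being Norad and Xist without untreated 1 and Norad without untreated 4. Quantile normalization shifted the table's median to -0.13, against 0.06 with the deposited scaling, and with it that of the speckle genes to -0.19. It turned the median of the processing genes to -0.05, and median centring took that of the speckle genes just below 0. With replicate number as a block 13 probe sets changed, both Malat1 probe sets among them. Same-numbered arrays did not deviate together, with correlations from -0.27 to 0.03, and 0 of 4 milrinone arrays correlated best with their own number.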

Other observations

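Of 60 probe sets of the other noncoding RNAs that were outside the fit, 7 were listed on more milrinone than untreated arrays, 23 on more untreated than milrinone arrays and 2 on as many of each, and 28 were empty throughout. Among the 7 was Snhg14 1455087_at, with 9.73, 12.5, 15.1 and 14.4 on milrinone 1 to 4, against 12.6 and 11.3 on untreated 1 and 3. Firre, an RNA of the X chromosome, was empty on the 4 milrinone arrays with probe set 1435744_at and had 41.4, 52.5 and 51.4 on untreated 1, 2 and 4. Kcnq1ot1, an imprinted antisense RNA, was empty on the 4 milrinone arrays with probe set 1457781_at and had 65.7, 48.0, 41.2 and 46.8 on untreated 1 to 4. Its brighter probe set 1459443_at had 137 and 87.9 on milrinone 1 and 2, against 97.7 on untreated 1 alone. The Oip5os1 probe set 1428411_at, outside the fit, had 32.1 and 45.6 on milrinone 1 and 4, against 485, 144, 127 and 60.1 on untreated 1 to 4, whereas 1430989_a_at, listed on all 8 arrays and tested, differed by -0.03. These values were picked after they were seen.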
